A study of Mus musculus with 12 samples.

Results

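The genes described here are 9 mouse genes of citrate and zinc handling, taken as a named list: Cs, Slc25a1, Me1, Me2, Got2, Slc39a1, Slc30a2, Slc30a4 and Mt1. All 9 had a probe set with a single gene symbol and all 9 passed the filter on dim genes, among 20135 genes tested of 22180 measured. Sorted epithelial cells of the prostate gave the RNA for 12 arrays. The mice were male, wild-type and hormone-naïve, their age is not in the labels, and no transgene or treatment is named. The sort left out cells with CD45, CD31 or Ter119, which mark immune, endothelial and erythroid cells. Each came from 1 of 3 gates, set on the surface proteins Sca1 and CD49f: luminal (Sca1-low, CD49f-low), Sca1-high (CD49f-positive) and basal (Sca1-intermediate, CD49f-positive). Every gate was divided into LY6D+ and LY6D- cells, LY6D being a surface protein, which gave 6 groups of 2 arrays. Mice 4 and 5 gave the luminal libraries, mice 1 and 5 the Sca1-high libraries and mice 3 and 5 the basal libraries.

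The prostate is known for making and secreting large amounts of citrate and for accumulating zinc. In the textbook account, zinc in the secretory epithelium limits the oxidation of citrate in the mitochondrion, so that citrate leaves the tricarboxylic acid cycle and is exported, and aspartate taken up by the cell supplies the oxaloacetate it is made from. Zinc enters cells through ZIP transporters (Slc39a genes), leaves the cytosol through ZnT transporters (Slc30a genes) and is bound there by metallothioneins.

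Values are log2 signals per probe set. Group values are means ± SD over 2 libraries (n = 2), gate values are means ± SD over the 4 libraries of a gate (n = 4), and differences are log2 ± the standard error of a limma fit over all 12 arrays. Adjusted p-values are Benjamini-Hochberg values over all 20135 genes tested, and a difference is called when this value is under 0.05. Libraries of a mouse are not independent, so the p-values measure the spread between libraries and not between mice, and precision is limited by how many arrays there are. The signals of different probe sets are not on a common scale, and no gene's level is set against another's. In RNA from sorted populations, fewer cells of a type and less RNA per cell cannot be told apart.

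Some libraries stood apart or went against their labels. On the first principal component the mouse 5 libraries of LY6D- luminal, LY6D+ basal and LY6D- basal cells scored 32.9, 71.5 and 73.1, and the other 9 libraries from -46.1 to 18.5. The mouse 5 library of LY6D+ Sca1-high cells had the lowest Krt8 signal (6.48) and Krt18 signal (5.30), keratins of luminal cells. The mRNA of Ly6d itself did not follow the sort: it lay between 4.70 and 5.96 in the libraries labelled LY6D+, between 4.61 and 7.37 in those labelled LY6D-, and was higher in the LY6D+ library in 3 of 6 pairs of a mouse and gate. Among the marker lists, the mean of 9 luminal epithelial genes was highest in the luminal gate (9.10 ± 0.28, against 7.84 ± 0.88 in Sca1-high and 7.97 ± 0.57 in basal cells). Not every gene of that list followed its mean. Krt8 had much the same mean in luminal (10.11) and basal cells (10.09). Krt18 overlapped, at 10.31 to 11.14 in luminal and 10.13 to 11.60 in basal libraries. Foxa1 was lower in luminal (6.54 ± 0.57) than in basal cells (8.09 ± 0.43). The means of Krt19, Cd24a, Hoxb13, Dpp4, Pbsn and Msmb were higher in luminal than in basal cells. Of the basal markers, Krt5 had no probe set with a single symbol. The mean of 9 basal epithelial genes was highest in the basal gate (8.33 ± 0.66, against 6.41 ± 0.90 in luminal and 6.85 ± 0.54 in Sca1-high cells). A list of 11 myeloid genes was also detected, with library means of 6.26 to 7.68 in the luminal, 4.40 to 5.86 for Sca1-high and 3.97 to 4.73 for basal cells. Ptprc, the gene of CD45, was among the 11, although CD45 was used to remove immune cells. It read 4.04 and 6.91 in LY6D+ luminal and 5.97 and 8.90 in LY6D- luminal libraries. Sca1-high libraries gave 3.86 to 4.53 and basal libraries 3.25 to 3.76. Although CD31 was used to remove endothelial cells, the signals of 9 endothelial genes were uneven across groups, with Pecam1, the gene of CD31, at 6.84 to 9.58 in Sca1-high and 4.43 to 5.73 in luminal libraries. The endothelial library means were 5.64 to 7.38 in Sca1-high, 6.94 and 6.83 in LY6D- basal, 4.24 and 4.67 in LY6D+ basal and 4.17 to 4.67 in luminal libraries. The mean of 5 seminal vesicle genes was 11.8 to 12.2 in luminal, 8.95 to 11.1 in Sca1-high and 7.41 to 11.3 in basal libraries. The mean of 9 fibroblast and smooth muscle genes lay between 5.00 and 6.16 in all 12. The part of these cells in any difference between gates or by LY6D was not tested.

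Between the gates, none of the 9 citrate and zinc handling genes passed the threshold. For basal minus luminal cells 0 of 9 were called, where 0.417% of all tested genes were, and 2 of 9 had an unadjusted p under 0.05, as did 9.44% of all genes: Me2 (lower in basal) and Slc30a4 (higher in basal). For Sca1-high minus luminal cells 0 of 9 were called (background 0.139%), and Me2 alone had an unadjusted p under 0.05 (background 8.41%). For Sca1-high minus basal cells 0 of 9 were called (background 0.00993%), and Got2 alone had an unadjusted p under 0.05 (background 9.83%). The median difference of the 9 genes was 0.21 for basal minus luminal, -0.19 for Sca1-high minus luminal and -0.11 for Sca1-high minus basal cells, beside -0.03, 0.07 and 0.11 over all genes tested. With mouse as a fixed block, all-gene counts of calls were 100, 104 and 80 in these 3 comparisons, against 84, 28 and 2 without it. They still held none of the 9. Only mouse 5 gave libraries in every gate, so the gate differences of that fit rest on mouse 5 alone. Its LY6D- luminal and its basal libraries stood apart, so these counts do not show a gain in precision.

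**Figure D1:**
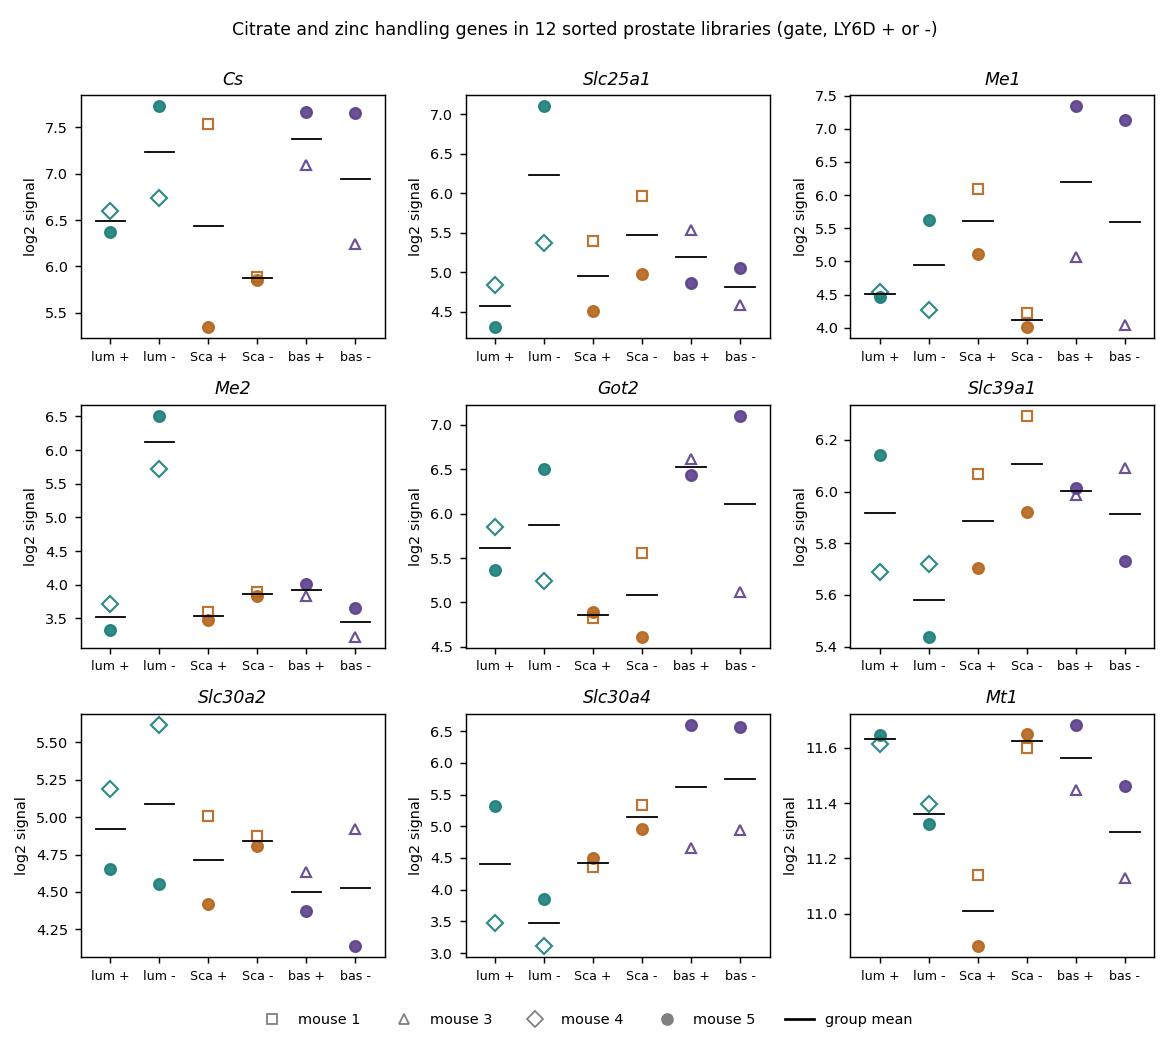
Log2 signal (vertical axis, scaled per gene) of the 9 genes in each of 12 libraries; the horizontal axis gives the 6 groups (lum, luminal; Sca, Sca1-high; bas, basal; + and - for LY6D), symbols mark the mouse and bars the group mean. Me2 lay at 5.72 and 6.51 in LY6D- luminal cells and at 4.01 or below elsewhere, while Mt1 stayed between 10.9 and 11.7 throughout.

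Me2 encodes a mitochondrial malic enzyme, which turns malate into pyruvate. In the luminal gate it read 3.72 and 3.32 in LY6D+ cells of mice 4 and 5, and 5.72 and 6.51 in their LY6D- cells. In the Sca1-high gate it read 3.59 and 3.48 (LY6D+, mice 1 and 5) and 3.90 and 3.83 (LY6D-). In the basal gate it read 3.83 and 4.01 (LY6D+, mice 3 and 5) and 3.23 and 3.65 (LY6D-). Both LY6D- luminal libraries lay above each of the other 10, and the remaining 5 groups spanned less than 1 log2 unit together. LY6D+ luminal cells were lower than LY6D- luminal cells by 2.0 in mouse 4 and 3.19 in mouse 5, on the log2 scale. The group means were 3.52 ± 0.28 and 6.11 ± 0.56, a difference of -2.59 ± 0.31 (95% interval -3.30 to -1.89), or 6.04-fold. Its unadjusted p in limma was 1.41e-05, and its adjusted p of 0.142 did not pass the threshold. It passed without the mouse 4 LY6D- luminal library (adjusted p = 0.014, with the lone library of that group assumed to vary as the other groups did) and with a trended, robust variance prior (adjusted p = 0.0363). Without the mouse 5 LY6D- luminal library, which stood apart, the difference was -2.20 and the adjusted p 0.137, and over all alternatives the adjusted p ran from 0.014 to 0.968.

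In the other gates the Me2 difference between LY6D+ and LY6D- cells was smaller: -0.33 ± 0.31 in Sca1-high cells (95% interval -1.04 to 0.37) and 0.48 ± 0.31 in basal cells (95% interval -0.23 to 1.19). Tested directly, the signed LY6D+ minus LY6D- difference was higher by 3.07 ± 0.44 in basal than in luminal cells (adjusted p = 0.326) and by 2.26 ± 0.44 in Sca1-high than in luminal cells (adjusted p = 1). Neither passed in the fit of all arrays; without the mouse 4 LY6D- luminal library the first did (3.47, adjusted p = 0.0493). The same 2 libraries carried the gate differences of Me2. Its gate means were 4.82 ± 1.54 in luminal, 3.70 ± 0.20 in Sca1-high and 3.68 ± 0.34 in basal cells. Basal minus luminal was -1.14 ± 0.22 (95% interval -1.64 to -0.64, adjusted p = 0.0761) and Sca1-high minus luminal -1.12 ± 0.22 (adjusted p = 0.138), 2.20-fold and 2.17-fold lower. Without the mouse 4 LY6D- luminal library they were called, at adjusted p = 0.0252 and 0.033. Without the 3 mouse 5 libraries that stood apart, they were -1.09 and -0.92 (adjusted p = 0.316 and 0.386).

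The 3 genes whose pattern over the 12 libraries was most like that of Me2 were Fkbp11 (Pearson r = 0.965), Spink11 (r = 0.949) and Klra5 (r = 0.947). These coefficients are descriptions over libraries that share mice and arrays. The genes were picked for this likeness, so their high LY6D- luminal values and their LY6D differences there follow from the choice and give no separate evidence. Fkbp11, a peptidyl-prolyl isomerase of the endoplasmic reticulum, read 5.67 and 7.26 in LY6D- luminal cells and 4.95 or below in the other 10 libraries. Spink11, of a family of serine protease inhibitors, read 4.92 and 5.00 there and 3.65 or below elsewhere. Klra5, of the natural killer cell lectin-like receptors, read 3.61 and 4.74 there and 2.77 or below elsewhere. LY6D+ minus LY6D- luminal differences were -2.19 ± 0.47 for Fkbp11, -1.61 ± 0.25 for Spink11 and -1.56 ± 0.34 for Klra5, none called (adjusted p = 0.889, 0.38 and 0.889).

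Markers of other cells moved with this pattern in part. The mean of 5 lymphoid genes was 4.83 and 5.84 in the LY6D- luminal libraries and 3.81 to 4.52 in the other 10. Of these 5, Nkg7 and Il2rb lay above all other libraries in both, with Il2rb at 5.53 and 7.55 against 4.46 or below. Of 9 luminal epithelial genes Hoxb13 and Pbsn did so narrowly. Hoxb13 was at 5.18 and 5.31 against 5.08 or below, and Pbsn (probasin, a secreted prostate protein) at 13.1 in each against 13.0 or below. Of 9 fibroblast and smooth muscle genes Myh11, a smooth muscle myosin, also lay above all other libraries in both, at 6.16 and 6.47 against 5.25 or below. None of the 11 myeloid, 9 endothelial, 9 basal epithelial and 5 seminal vesicle genes did. The share of all tested genes that did was not counted, so these marker counts have no background beside them. The fibroblast and smooth muscle mean was 5.54 and 6.16 in LY6D- luminal cells and 5.00 to 5.91 in the other 10 libraries. Dcn, of that list, went the other way from Myh11. It was lowest of all 12 in both LY6D- luminal libraries, at 8.65 and 9.94 against 10.03 or above. The basal epithelial mean was lowest of all 12 in these same libraries, at 5.39 and 5.90 against 6.35 or above, and Krt14, a basal keratin, read 4.98 and 6.99 in them against 9.87 and 10.3 in LY6D+ luminal cells. The part of these cells in the Me2 values was not tested.

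**Figure D2:**
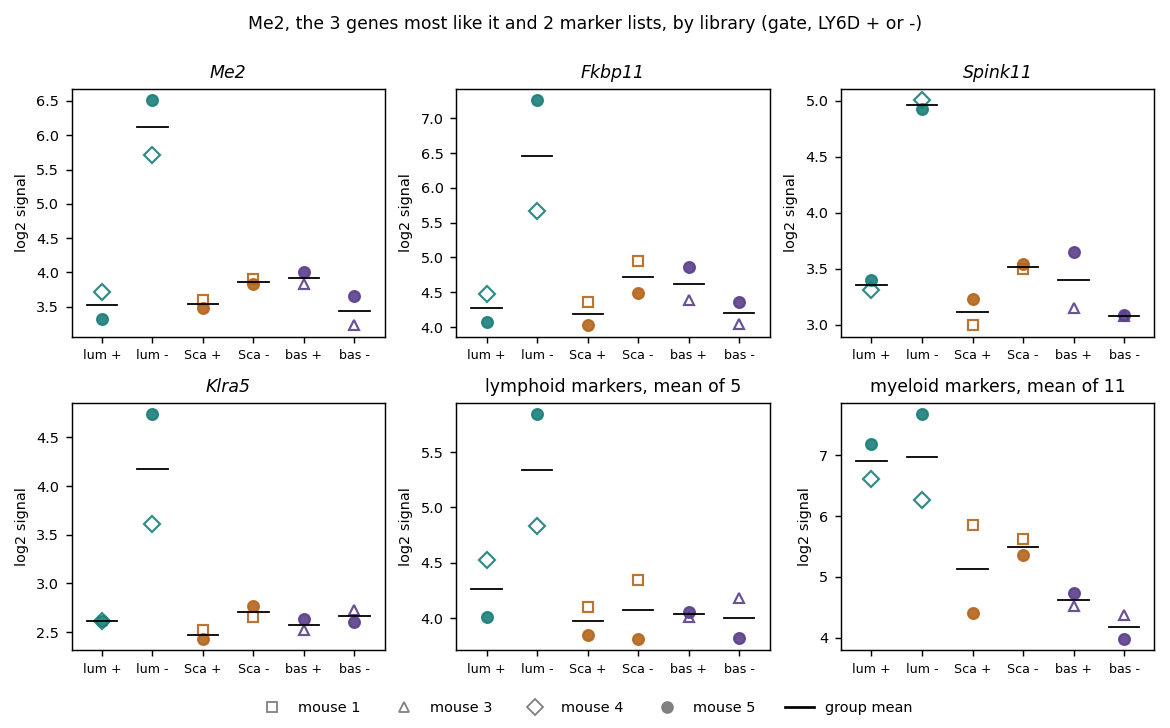
Log2 signal (vertical axis, scaled per panel) of Me2, its 3 nearest genes and the mean of 5 lymphoid and 11 myeloid markers in 12 libraries; the horizontal axis gives the 6 groups, symbols the mouse and bars the group mean. The 2 LY6D- luminal libraries were the highest for Me2, Fkbp11, Spink11, Klra5 and the lymphoid mean, and not for the myeloid mean, which was 6.26 and 7.68 in them and 6.61 and 7.19 in LY6D+ luminal cells.

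Citrate synthase, encoded by Cs, condenses acetyl-CoA and oxaloacetate into citrate in the mitochondrion. The luminal libraries read 6.60 and 6.37 (LY6D+, mice 4 and 5) and 6.74 and 7.73 (LY6D-), the Sca1-high libraries 7.53 and 5.34 (LY6D+, mice 1 and 5) and 5.89 and 5.86 (LY6D-), and the basal libraries 7.10 and 7.66 (LY6D+, mice 3 and 5) and 6.24 and 7.65 (LY6D-). The gates overlapped. The order of the gate means was basal (7.16 ± 0.67), luminal (6.86 ± 0.60) and Sca1-high (6.16 ± 0.95). Neighbours in this order did not differ beyond their spread, and Sca1-high minus basal was -1.01 ± 0.49 (95% interval -2.11 to 0.10, adjusted p = 0.53). The 3 libraries that stood apart held the 3 highest Cs values of all 12 (7.65 to 7.73), and without them this difference was -0.52. The copy of citrate synthase named Csl, measured by a probe set of its own, ran the other way, at 3.90 ± 0.20 in Sca1-high and 3.35 ± 0.30 in basal cells (difference 0.55 ± 0.24, adjusted p = 0.498). Whether signal is shared between these 2 sequences was not tested.

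Got2 encodes the mitochondrial aspartate aminotransferase, which exchanges aspartate and oxaloacetate. It read 5.85 and 5.37 (LY6D+) and 5.24 and 6.50 (LY6D-) in luminal cells of mice 4 and 5. Sca1-high cells of mice 1 and 5 gave 4.82 and 4.90 (LY6D+) and 5.55 and 4.61 (LY6D-), and basal cells of mice 3 and 5 gave 6.62 and 6.44 (LY6D+) and 5.11 and 7.10 (LY6D-). Of the 4 basal libraries, 3 lay above every Sca1-high library. Gate means were 6.32 ± 0.85 in basal, 5.74 ± 0.57 in luminal and 4.97 ± 0.41 in Sca1-high cells. Sca1-high minus basal was -1.35 ± 0.45 (95% interval -2.36 to -0.33), 2.54-fold lower, with an adjusted p of 0.404. Without the 3 libraries that stood apart it was -0.89. A second, dimmer Got2 probe set read 4.08 ± 0.17, 4.09 ± 0.06 and 4.24 ± 0.32 in luminal, Sca1-high and basal cells and did not show a difference of that size.

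Slc25a1 encodes the mitochondrial citrate carrier, which moves citrate to the cytosol. In luminal cells it read 4.84 and 4.30 in LY6D+ and 5.37 and 7.10 in LY6D- libraries of mice 4 and 5. The Sca1-high libraries gave 5.40 and 4.51 (LY6D+, mice 1 and 5) and 5.96 and 4.98 (LY6D-), and the basal libraries 5.53 and 4.86 (LY6D+, mice 3 and 5) and 4.58 and 5.06 (LY6D-). In 5 of 6 pairs the LY6D+ library was the lower one, and the mouse 5 LY6D- luminal library was the highest of all 12. LY6D+ luminal cells were lower than LY6D- by 0.53 in mouse 4 and by 2.8 in mouse 5. The fitted difference of -1.67 ± 0.59 (95% interval -3.00 to -0.33), 3.18-fold, had an adjusted p of 1, and was -0.80 without that library. Tested directly, the signed LY6D+ minus LY6D- difference of Slc25a1 was higher by 2.04 ± 0.84 in basal than in luminal cells (adjusted p = 0.999), and 1.18 without that library. The gate means of 5.40 ± 1.21 (luminal), 5.21 ± 0.62 (Sca1-high) and 5.01 ± 0.40 (basal) lay within their spread.

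Me1, the cytosolic malic enzyme and a source of NADPH, had a wide spread between mice in the basal gate. The luminal libraries lay between 4.26 and 5.63. In Sca1-high cells it read 6.09 and 5.11 (LY6D+, mice 1 and 5) and 4.23 and 4.01 (LY6D-), higher in the LY6D+ library of each mouse by 1.86 and 1.11. In basal cells it read 5.07 (LY6D+) and 4.04 (LY6D-) in mouse 3 but 7.34 and 7.13 in mouse 5, whose basal libraries stood apart. The LY6D+ library was the higher one in 5 of 6 pairs, with a difference over all gates of 0.55 ± 0.57 (95% interval -0.74 to 1.85, adjusted p = 1). Gate means were 4.72 ± 0.61 in luminal, 4.86 ± 0.95 in Sca1-high and 5.90 ± 1.60 in basal cells. Basal minus luminal was 1.17 ± 0.70 (adjusted p = 0.718); it was 2.19 with mouse as a block (adjusted p = 0.102) and 0.17 without the 3 libraries that stood apart. Sca1-high minus basal was -1.03 ± 0.70 and turned to 0.30 without those 3.

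**Figure D3:**
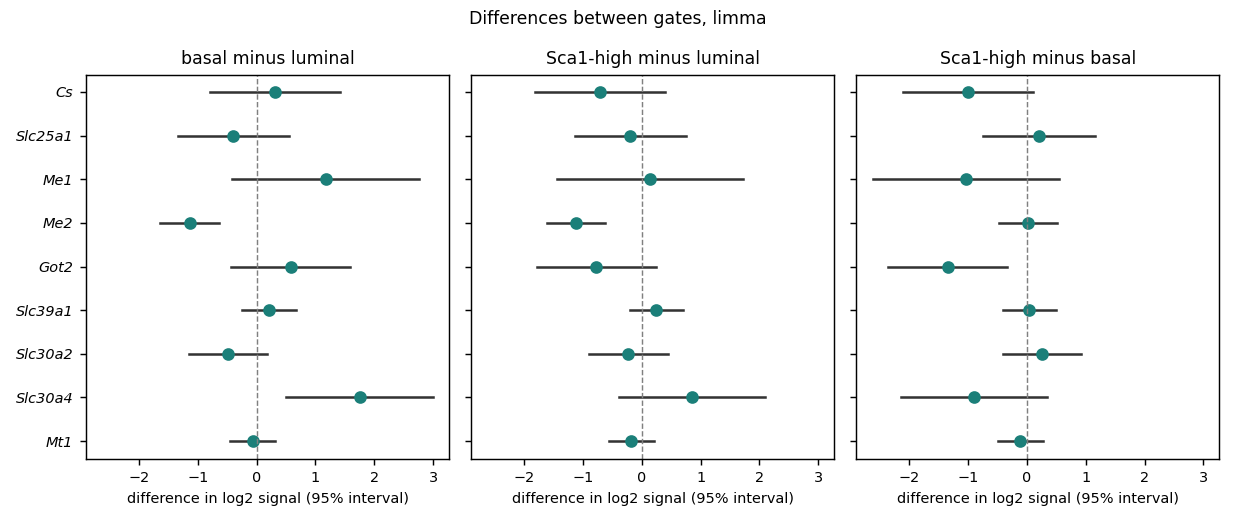
Differences in log2 signal between gates (horizontal axis; points, limma estimates; lines, 95% intervals) for the 9 genes, in 1 panel for each pair of gates. The interval left out 0 for Me2 (-1.64 to -0.64) and Slc30a4 (0.51 to 2.99) in basal minus luminal, for Me2 (-1.62 to -0.62) in Sca1-high minus luminal and for Got2 (-2.36 to -0.33) in Sca1-high minus basal cells, and no adjusted p passed.

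The wider set of citrate enzymes and carriers held no call either: 0 of 22 tested of 25 listed genes passed in any of the gate or LY6D comparisons. In basal minus luminal cells 6 of the 22 were higher (27.3%, against 45.8% of all genes). The median difference was -0.20, beside -0.03 over all genes. In this comparison 1 of 22 reached an unadjusted p under 0.05 (background 9.44%). For Sca1-high minus luminal cells 1 did (background 8.41%), and for Sca1-high minus basal cells 2 (background 9.83%). The 2 with the smallest p in basal minus luminal cells were Idh1, the cytosolic isocitrate dehydrogenase, and Mdh1, the cytosolic malate dehydrogenase. Idh1 was at 4.38 ± 0.87 in luminal and 3.49 ± 0.20 in basal cells (adjusted p = 0.511), and Mdh1 at 4.89 ± 0.16 and 4.42 ± 0.23 (adjusted p = 0.552). They were also the 2 with the smallest p in Sca1-high minus luminal cells, where Mdh1 stood at 4.14 ± 0.40 in Sca1-high cells (difference -0.75 ± 0.22, adjusted p = 0.366) and Idh1 at 3.52 ± 0.14. The luminal Idh1 values were uneven, at 4.04 and 4.56 (LY6D+, mice 4 and 5) and 3.44 and 5.48 (LY6D-). The highest was that of a library that stood apart. In Sca1-high minus basal cells Mdh2, the mitochondrial malate dehydrogenase, read 7.44 ± 0.88 and 8.89 ± 1.06 (difference -1.45 ± 0.62, adjusted p = 0.498), beside Csl described above. In mouse 5, whose basal libraries stood apart, Mdh2 read 6.57 and 6.81 in Sca1-high and 9.81 and 9.52 in basal cells (LY6D+ and LY6D-). The Sca1-high values of mouse 1 (8.06 and 8.32) overlapped with the basal values of mouse 3 (8.81 and 7.43).

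Slc39a1 encodes ZIP1, a zinc importer of the plasma membrane known in prostate cells. Its 12 values ran from 5.44 to 6.29, and the gate means of 6.0 ± 0.25 (Sca1-high), 5.96 ± 0.16 (basal) and 5.75 ± 0.29 (luminal) overlapped. Basal minus luminal was 0.21 ± 0.20 (95% interval -0.24 to 0.66), Sca1-high minus luminal 0.25 ± 0.20 (-0.20 to 0.70) and Sca1-high minus basal 0.04 ± 0.20 (-0.41 to 0.49). The intervals thus reach no further than 0.70 in any gate comparison. The lowest value was that of the mouse 5 LY6D- luminal library and the highest that of the mouse 1 LY6D- Sca1-high library. Of the wider list of 13 zinc importers, 0 were called in any comparison, and the median for basal minus luminal was -0.12 (-0.03 over all genes). An unadjusted p under 0.05 was reached by 0 in basal minus luminal cells (background 9.44%). For Sca1-high minus luminal cells it was 2 (background 8.41%), and for Sca1-high minus basal cells 1 (background 9.83%). The smallest p in basal minus luminal belonged to Slc39a7 and Slc39a8, at 5.86 ± 1.12 and 4.97 ± 0.23 in luminal against 5.06 ± 0.65 and 4.67 ± 0.16 in basal cells. In Sca1-high cells these 2 stood at 4.64 ± 0.18 and 4.48 ± 0.42 (difference from luminal -1.22 ± 0.53 and -0.48 ± 0.20, adjusted p = 0.588 and 0.564). In Sca1-high minus basal cells Slc39a6 (4.94 ± 0.38 and 5.98 ± 0.54) and Slc39a11 (5.37 ± 0.15 and 5.10 ± 0.18) had the smallest p, with adjusted p of 0.465 and 0.6.

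The 2 zinc exporters among the 9 genes, Slc30a2 (ZnT2) and Slc30a4 (ZnT4), load zinc into vesicles and are known for zinc secretion in mammary gland. Slc30a4 read 3.48 and 5.32 (LY6D+) and 3.11 and 3.85 (LY6D-) in luminal cells of mice 4 and 5. Sca1-high cells of mice 1 and 5 gave 4.35 and 4.50 (LY6D+) and 5.34 and 4.96 (LY6D-), and basal cells 4.66 and 4.94 in mouse 3 and 6.59 and 6.56 in mouse 5 (LY6D+ and LY6D-). Of 4 luminal libraries 3 lay below every library of the other gates, and the mouse 5 LY6D+ luminal library lay within them. Its gate means were ordered basal (5.69 ± 1.03), Sca1-high (4.79 ± 0.45) and luminal (3.94 ± 0.97). Basal minus luminal was 1.75 ± 0.55 (95% interval 0.51 to 2.99), 3.36-fold higher, with an adjusted p of 0.306. With mouse as a fixed block, which rests gate differences on mouse 5 alone, it was 1.99 (adjusted p = 0.0757). Without the 3 libraries that stood apart it was 1.04 (adjusted p = 0.84). The neighbouring gates did not differ beyond their spread: Sca1-high minus luminal was 0.85 ± 0.55 (95% interval -0.39 to 2.09) and Sca1-high minus basal -0.90 ± 0.55 (-2.14 to 0.34), which became -0.01 without those 3.

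Slc30a2 ran from 4.14 to 5.61, with gate means of 5.00 ± 0.49 (luminal), 4.78 ± 0.25 (Sca1-high) and 4.52 ± 0.34 (basal). This is the reverse of the order of Slc30a4. Basal minus luminal was -0.49 ± 0.30 (95% interval -1.15 to 0.18, adjusted p = 0.726). Luminal values split by mouse rather than by LY6D, at 5.19 and 5.61 in mouse 4 and 4.66 and 4.56 in mouse 5. The 3 libraries that stood apart took ranks 9, 11 and 12 of 12. Among 7 tested of 9 listed other exporters 0 were called, and the median for basal minus luminal was -0.09 (-0.03 over all genes). In the 3 gate comparisons 0, 1 and 0 reached an unadjusted p under 0.05 (backgrounds 9.44%, 8.41% and 9.83%). Slc30a7, an exporter of the secretory pathway, read 5.12 and 7.61 in LY6D+ luminal cells of mice 4 and 5, 4.55 and 5.13 in their LY6D- cells, and 4.36 ± 0.18 over Sca1-high and 4.87 ± 0.32 over basal libraries. Its difference was -1.25 ± 0.47 for Sca1-high minus luminal cells (adjusted p = 0.524), and 1.53 ± 0.66 for LY6D+ minus LY6D- luminal cells (adjusted p = 1). Slc30a5, a dim signal near the table's lower quartile of 2.98, had the smallest p of the list in both other gate comparisons, at 2.82 ± 0.22 in luminal, 2.74 ± 0.16 in Sca1-high and 3.16 ± 0.19 in basal cells (adjusted p = 0.681 for basal minus luminal and 0.513 for Sca1-high minus basal). Slc30a3 was at 5.49 ± 0.19 in Sca1-high, 5.14 ± 0.24 in luminal and 5.04 ± 0.27 in basal cells.

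Mt1 encodes metallothionein 1, a small cysteine-rich protein that binds zinc and is induced by it. The luminal libraries read 11.61 and 11.65 (LY6D+, mice 4 and 5) and 11.40 and 11.32 (LY6D-), and the basal libraries 11.45 and 11.68 (LY6D+, mice 3 and 5) and 11.13 and 11.46 (LY6D-). The Sca1-high libraries read 11.14 and 10.88 (LY6D+, mice 1 and 5) and 11.60 and 11.65 (LY6D-). The LY6D+ library was higher in both mice in the luminal and basal gates, and lower in both in the Sca1-high gate. The differences were 0.27 ± 0.24 in luminal, 0.27 ± 0.24 in basal and -0.61 ± 0.24 in Sca1-high cells, the last 1.53-fold, and each had an adjusted p of 1. Tested directly, the Sca1-high LY6D difference was lower than the luminal and the basal one by 0.88 ± 0.34 each (adjusted p = 1 for both). Gate means were 11.50 ± 0.16 (luminal), 11.43 ± 0.23 (basal) and 11.32 ± 0.37 (Sca1-high), and the 95% intervals of the gate differences lay between -0.56 and 0.31. The mouse 5 LY6D+ Sca1-high library, with low Krt8 and Krt18, held the lowest Mt1 value; without it the Sca1-high difference was -0.49.

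Spinkl (r = 0.890), Ilrun (r = 0.834) and Olfr419 (r = 0.818) had the patterns most like that of Mt1 over the 12 libraries. They were picked for this likeness, so low values in the libraries where Mt1 is low follow from the choice. Spinkl, of the same family of protease inhibitors as Spink11, read 6.19 and 4.32 in LY6D+ Sca1-high cells and 7.49 to 12.4 in the other 10 libraries. Mt2, the neighbour of Mt1 in the metallothionein family, was also lower in LY6D+ than in LY6D- Sca1-high cells of both mice, by little in mouse 1: it read 12.5 and 12.6 in LY6D+ and LY6D- cells of mouse 1, and 9.08 and 10.6 in those of mouse 5. Its gate means were 12.4 ± 0.32 in luminal, 11.2 ± 1.68 in Sca1-high and 12.8 ± 0.50 in basal cells, with -1.62 ± 0.68 for Sca1-high minus basal (adjusted p = 0.491). Whether signal is shared between the probe sets of Mt1 and Mt2 was not tested. Of the 4 genes of the list of other metallothioneins and the zinc sensor, 0 were called in any comparison. Mt2 and Mt3 reached an unadjusted p under 0.05 in Sca1-high minus basal cells (background 9.83%). Mt3 was at 5.57 ± 0.73 in Sca1-high, 5.26 ± 0.22 in luminal and 4.68 ± 0.40 in basal cells (adjusted p = 0.485 for Sca1-high minus basal). Mtf1, the zinc-sensing transcription factor that binds metal response elements, was at 5.19 ± 0.27 in luminal and 4.85 ± 0.32 in Sca1-high cells (adjusted p = 0.751).

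The promoter sequences of the zinc genes are shown because 3 of them hold the core of that element. No difference of these 3 genes between gates or by LY6D was called. Promoter windows from 250 bases before to 50 after the annotated start were taken from RefSeq (GRCm38.p6) and were found for 8 of the 9 genes. The core was searched as TGCACNC or TGCGCNC on both strands. Mt1 (chr8:94178839-94179138, plus strand) held 3 matches, Slc30a4 (chr2:122702614-122702913, minus strand) 3, and Slc30a2 (chr4:134343216-134343515, plus strand) 2, while Slc39a1, Cs, Slc25a1, Me1 and Got2 held 0. Of 32851 promoter windows of this length, 25.7% held at least 1 match, 7.11% at least 2 and 1.97% at least 3. The windows are printed 5′ to 3′ along the gene's strand, with matches in capitals:
Mt1: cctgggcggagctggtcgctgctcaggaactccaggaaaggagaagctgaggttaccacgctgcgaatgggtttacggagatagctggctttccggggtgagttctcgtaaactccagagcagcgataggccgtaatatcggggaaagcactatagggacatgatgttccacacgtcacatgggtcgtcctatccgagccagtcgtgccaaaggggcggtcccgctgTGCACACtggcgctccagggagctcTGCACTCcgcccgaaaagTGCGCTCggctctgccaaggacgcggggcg
Slc30a4: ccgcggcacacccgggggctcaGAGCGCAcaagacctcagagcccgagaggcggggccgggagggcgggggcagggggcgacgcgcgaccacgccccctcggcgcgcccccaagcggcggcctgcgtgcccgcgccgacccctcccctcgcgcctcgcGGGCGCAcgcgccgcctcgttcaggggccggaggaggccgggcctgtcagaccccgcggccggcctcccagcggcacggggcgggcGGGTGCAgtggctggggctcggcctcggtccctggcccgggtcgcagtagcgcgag
Slc30a2: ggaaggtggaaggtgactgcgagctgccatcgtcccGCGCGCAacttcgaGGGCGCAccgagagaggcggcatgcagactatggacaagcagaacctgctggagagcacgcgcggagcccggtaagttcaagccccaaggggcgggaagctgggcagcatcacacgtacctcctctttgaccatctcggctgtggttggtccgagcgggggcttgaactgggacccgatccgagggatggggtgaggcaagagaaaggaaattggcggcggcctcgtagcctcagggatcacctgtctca
Counted from the annotated start, which was not checked in these cells, the Mt1 matches lie on the gene's own strand. Their first printed bases are at -23, 3 and 21. Those of Slc30a4 (-228, -92 and -6) and of Slc30a2 (-214 and -200) read on the opposite strand. A match is a description of letters, not a site of binding. Mt1 ran from 10.9 to 11.7 over the 12 libraries. Slc30a4 ran from 3.11 to 6.59, its highest values being those of the mouse 5 basal libraries, which stood apart. Slc30a2 ran from 4.14 to 5.61. Mt2, of the wider lists, held 4 matches and ran from 9.08 to 13.2. These ranges come from different probe sets and are not set against each other. In the wider lists, 18 of the 44 genes found, with 52 windows in all, held a match in at least 1 window. This count is by gene and the 25.7% is by window, so that share is not a background for it.

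**Figure D4:**
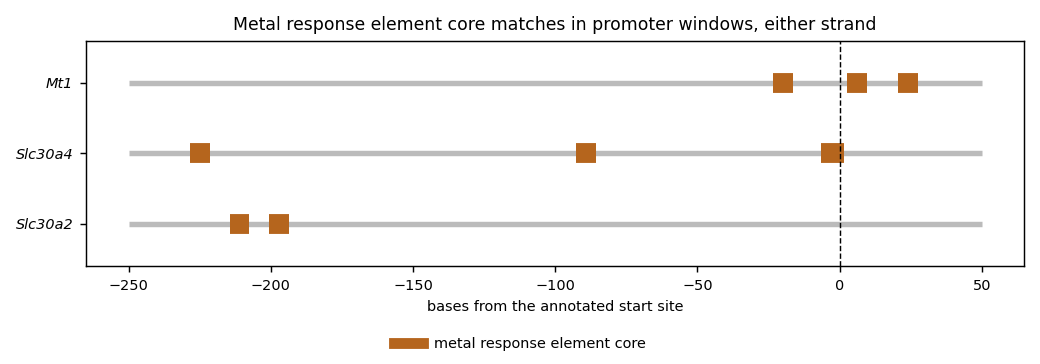
Positions of metal response element core matches (blocks) in the promoter windows of Mt1, Slc30a4 and Slc30a2 (grey lines); the horizontal axis gives bases from the annotated start (dashed line). The 3 Mt1 matches lie around the annotated start, and the 2 of Slc30a2 lie before theirs, at -214 and -200. Whether the annotated start is the one used in these cells was not tested.

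Divided by LY6D, none of the 9 genes was called in any gate, over all gates, or in the differences between gates. In luminal cells the background of calls was 0% and 2 of 9 had an unadjusted p under 0.05 (Me2 and Slc25a1, both lower in LY6D+; background 3.56%). In Sca1-high cells it was 0% and 1 of 9 (Mt1, lower; background 2.41%), and in basal cells 0.00993% and 0 of 9 (background 2.2%). Over all gates it was 0% and 1 of 9 (Me2, -0.82 ± 0.18, adjusted p = 1; background 2.62%). For the differences of the LY6D effect between gates the background of calls was 0% in all 3. At an unadjusted p under 0.05 stood 2 of 9 genes for basal against luminal (Me2 and Slc25a1; background 2.45%), 2 of 9 for Sca1-high against luminal (Me2 and Mt1; background 2.92%) and 1 of 9 for Sca1-high against basal (Mt1; background 2.36%). The median LY6D+ minus LY6D- difference of the 9 genes was -0.27 in luminal, -0.22 in Sca1-high and 0.38 in basal cells, against 0.02, -0.04 and 0.02 over all genes. Cs, Got2, Slc30a2 and Slc30a4 were higher in LY6D+ in 3 of 6 pairs each, and Slc39a1 in 2 of 6.

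**Figure D5:**
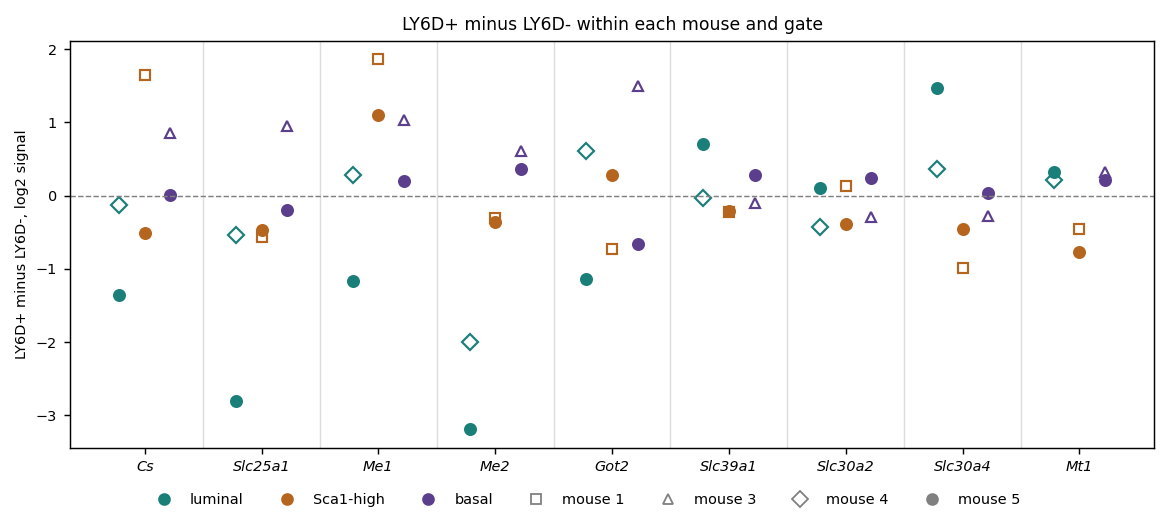
LY6D+ minus LY6D- difference in log2 signal (vertical axis) for each of the 9 genes within each mouse and gate; colours give the gate and symbols the mouse. Me2 in luminal cells lay lowest, at -2.0 and -3.19, and Mt1 was below 0 in both Sca1-high pairs (-0.46 and -0.77) and above 0 in the other 4.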

How the data were processed

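The authors deposited 1 log2 signal for each probe set and array, from RNA purified from sorted cells and amplified with NuGEN Ovation V2, per the labels; RMA and oligo are named in the submitters' processing notes, with no version or settings. No scanner file was used to check the scale. Values of the 41345 probe sets ran from 0.695 to 14.3. Genes were named from GEO's platform annotation by 23521 probe sets with a single symbol. The brightest was kept for a gene with several (1 of the 9: Got2). A gene was tested when at least 2 arrays exceeded the table's lower quartile (2.98).

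The 12 arrays were fitted together in limma 3.58.1 (R 4.3.3), each of the 6 groups having its own mean (6 residual and 3.28 prior degrees of freedom). The gate comparisons average the LY6D+ and LY6D- groups. The script was tested on simulated data. Same-numbered libraries come from the same mouse; after removing group means the correlation within such pairs was 0.0220 for luminal, 0.149 for Sca1-high and 0.407 for basal cells. Alternatives were mouse as a fixed or a random block, array centring, other filters and variance priors, and leaving out arrays.

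The 9 genes, the wider lists and the marker lists were chosen with earlier results of these data known. The genes named beyond the 9 were, for each wider list, those past the threshold (none) or the 2 with the smallest p in a gate comparison, and the 3 with the highest Pearson r with Me2 (smallest gate p) and with Mt1. Csl, Mt2 and Slc30a7 values by library were added after they were seen. In the wider lists 46 of 51 genes had a probe set with a single symbol.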

Additional observations from a re-analysis of the deposited data

How the results depend on the processing

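Under 21 alternative settings, 12 of them leaving out 1 array each, 36 differences of the 9 genes were recomputed 755 times: 719 kept their direction and side of the threshold, 5 passed it anew and 31 turned in sign, and 21 differences did neither under any alternative run for them. None of the 36 was called at the start, so keeping needed only the same sign and no call. A fall in size counted as kept, such as 1.17 to 0.17 for Me1 basal minus luminal without the 3 libraries that stood apart. Leaving out an array of a gate not compared could not change a difference, so these counts do not measure stability. The count of called genes, 0 in each comparison, became 1 (Me2) with a trended, robust variance prior in luminal LY6D+ minus LY6D- cells. Leaving out 1 array it ran from 0 to 1 for basal minus luminal, Sca1-high minus luminal, luminal LY6D+ minus LY6D- cells and the basal minus luminal difference of the LY6D effect; each 1 was Me2 without the mouse 4 LY6D- luminal library. The cause was not tested. The replicate block (mouse as a fixed effect), whose gate differences rest on mouse 5 alone, changed no call of the 9 genes. Signs turned with this block for Mt1 basal minus luminal (0.0878), for Me1 (-0.48) and Slc30a2 (0.0071) Sca1-high minus luminal, and for Slc25a1 (-0.21), Me2 (-0.18) and Slc39a1 (-0.0605) Sca1-high minus basal; with mouse as a random block for Me2 Sca1-high minus basal (-0.0104). Centring arrays on their medians moved every Sca1-high minus basal difference by 0.13 and turned Me2 (-0.11) and Slc39a1 (-0.0869) there. Without the 3 libraries that stood apart, signs turned for Slc25a1 basal minus luminal (0.0826) and Sca1-high minus luminal (0.24), and for Me1 (0.30), Slc39a1 (-0.0438) and Mt1 (0.0295) Sca1-high minus basal. Leaving out 1 array, basal minus luminal ran from -0.0468 to 0.66 for Cs, -0.83 to 0.0347 for Slc25a1 and -0.15 to 0.0187 for Mt1; Sca1-high minus luminal from -0.62 to 0.24 for Slc25a1, -0.20 to 0.48 for Me1 and -0.49 to 0.0392 for Slc30a2; and Sca1-high minus basal from -0.0403 to 0.45 for Slc25a1, -0.0877 to 0.13 for Me2 and -0.0536 to 0.13 for Slc39a1. None of the differences that turned was called. With no detection p used, how far dim signals such as those of Me2 outside LY6D- luminal cells lie above background is not known.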

Other observations

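Slc30a1, the zinc exporter of the plasma membrane that zinc induces, had no probe set of its own symbol alone, and the brighter of the probe sets that share its symbol with another gene read 5.66 ± 0.35 in luminal, 6.20 ± 0.58 in Sca1-high and 6.21 ± 0.30 in basal cells (n = 4 each). The dimmer one ran the other way, highest in luminal cells, at 4.06 ± 0.36, 3.73 ± 0.29 and 3.84 ± 0.32 in the same gates. Because the symbol is shared, these values are not assigned to Slc30a1.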
